A study of Homo sapiens with 9 samples.

Results

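The transcripts described here encode the proteins of the cytosolic ribosome. Members were the protein-coding genes whose symbols carry the ribosomal protein prefixes RPL, RPS, RPLP or RPSA, with the mitochondrial ribosomal protein genes left out by the naming rule. They numbered 85 of the 58735 Ensembl genes in both deposited tables, with 53 in the large subunit and 32 in the small subunit. Of these, 8 are second copies of another member (RPL3L, RPL7L1, RPL10L, RPL22L1, RPL26L1, RPL36AL, RPL39L and RPS27L), and 77 are the usual form. Their genes lay on 21 chromosomes, with 12 on chromosome 19 and 4 on the X chromosome. A mean of at least 1 FPKM (fragments per kilobase of listed gene length, scaled to the library total) was reached by 82 members, 50 of the large and 32 of the small subunit.

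The study asked how collagen aligned by CPXM2, a secreted carboxypeptidase-like protein, affects transcripts in tumour cells of the pancreas. The cells were PaTu 8988t, an established human pancreatic tumour line, kept on extracellular matrix of 3 kinds, and 3 RNA libraries were sequenced for each. The control matrix is called Control here, the matrix with overexpressed wild-type CPXM2 is called WT, and the matrix with the overexpressed R213A form is called R213A. These names describe the matrix, and no alteration of the PaTu 8988t cells themselves is named in the labels. Every group shared medium with 10% serum, TRIzol extraction and a stranded poly(A) library preparation. Control 1, WT 1, R213A 1 and R213A 3 were deposited in a 4-library table, and Control 2, Control 3, WT 2, WT 3 and R213A 2 in a 5-library table. The labels do not say what separates the tables, which were treated as a batch only in the sense of separate deposition. Nor do they say whether replicates were separate cultures, so a p-value here speaks only of library spread and that spread may be technical.

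A ribosome carries 1 copy of nearly every ribosomal protein. Cells commonly hold the transcripts of these proteins at levels far above most other genes. Many of these mRNAs start with a C followed by an unbroken run of pyrimidines, the 5′ terminal oligopyrimidine (TOP) motif. Translation of TOP mRNAs is known to follow growth factor and nutrient signalling through mTORC1, with the RNA-binding protein LARP1 holding them back when that signal falls. Ribosomal protein mRNA levels are commonly read as a mark of the capacity for protein synthesis, although they do not measure how far these mRNAs are translated.

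Start-site sequence was looked up because the TOP motif is what most members are known to share. RefSeq promoter windows (GRCh38.p14) matched 68 of the 85 members by symbol. Of these, 47 (69.1%) had a C at the annotated start base followed by at least 4 more C or T bases on the coding strand. Among all genes with a window, 1404 of 27305 did (5.14%). A gene was counted if any of its windows had the run. Among the second copies with a window, 1 of 6 had such a start. Allowing the run to begin within 5 bases of the annotated start gave 55 of 68 members, 2 of 6 second copies and 6886 of 27305 genes. The following stretches run 5′ to 3′ on the coding strand, with 20 bases before and 20 bases from the annotated start. For a gene with several windows, the one with the longest run at the start base is shown. Capitals mark the C/T run at the start base, and stretches wholly in lower case have none there.
RPLP0: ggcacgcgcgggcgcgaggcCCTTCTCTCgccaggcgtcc
RPS6: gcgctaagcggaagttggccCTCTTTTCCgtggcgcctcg
RPS12: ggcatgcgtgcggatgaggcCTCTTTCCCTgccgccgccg
RPL22: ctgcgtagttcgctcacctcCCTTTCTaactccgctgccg
RPL22L1: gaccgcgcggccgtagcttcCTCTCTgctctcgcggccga
RPS27: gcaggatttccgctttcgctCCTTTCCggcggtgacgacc
RPS27L: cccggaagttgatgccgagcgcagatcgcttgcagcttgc
RPL7L1: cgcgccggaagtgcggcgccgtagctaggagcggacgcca

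They come from chr12:120201092-120201131 (minus strand, RPLP0), chr9:19380217-19380256 (minus, RPS6), chr6:132814549-132814588 (plus, RPS12), chr1:6199576-6199615 (minus, RPL22), chr3:170870176-170870215 (minus, RPL22L1), chr1:153990742-153990781 (plus, RPS27), chr15:63157458-63157497 (minus, RPS27L) and chr6:42879596-42879635 (plus, RPL7L1). The run is 9 bases in RPLP0 and RPS6, 10 in RPS12, 7 in RPL22 and RPS27 and 6 in RPL22L1. RPS27L and RPL7L1 lack it in these windows. A match is a description of letters, and start sites were not measured in these libraries.

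Ribosomal protein genes took a larger share of the reads in WT 1, R213A 1 and R213A 3 than in any other library. Reads were recovered from the FPKM values and gene lengths, with 15951927 to 18312806 per library. In the 4-library table the share was 7.83% in Control 1, 12.9% in WT 1, 15.5% in R213A 1 and 11.9% in R213A 3. In the 5-library table it was 6.71% in Control 2, 6.11% in Control 3, 6.22% in WT 2, 6.73% in WT 3 and 6.27% in R213A 2. Wilson 95% intervals reached at most 0.0178 percentage points to either side, and cover counting error only. Libraries of the same matrix therefore differed far more than counting error, and by table. Over all 3 libraries the share was 6.89% ± 0.871 (SD, n = 3) in Control, 8.61% ± 3.70 (SD, n = 3) in WT and 11.2% ± 4.65 (SD, n = 3) in R213A. The Control libraries of both tables span 6.11% to 7.83%, a range that takes in WT 2, WT 3 and R213A 2. Within the 5-library table Control spans 6.11% to 6.71%, which takes in WT 2 and R213A 2, and WT 3 lies just above at 6.73%.

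**Figure D1:**
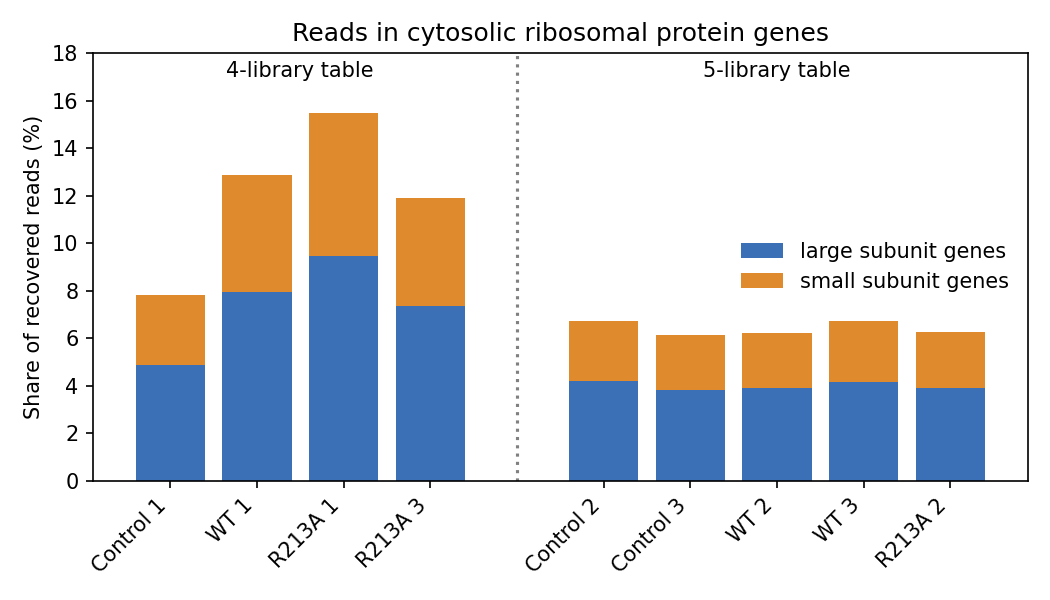
Share of recovered reads (%, vertical axis) in large subunit (blue) and small subunit (orange) genes, stacked, for each of the 9 libraries. The dotted line separates the 4-library table (left) from the 5-library table (right). WT 1, R213A 1 and R213A 3 stand at 11.9% to 15.5%, and the other 6 libraries at 6.11% to 7.83%.

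The size of the gap depended on the scale. As a ratio of read shares, WT 1 was 1.64 times, R213A 1 1.98 times and R213A 3 1.52 times Control 1. As the median ratio of FPKM over the members tested, the corresponding values were 1.67, 2.51 and 1.58. The deposited FPKM used a library scaling that was 0.850 of the read total in R213A 1 and 1.09 of it in Control 1, and how it was set is not given in the sources used here. In the 5-library table the scaling was 0.902 of the read total in Control 2 and 1.03 in Control 3. The members of Control 2 stood 1.25 times above those of Control 3 by median FPKM ratio, and 1.10 times by read share.

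Within the 4-library table nearly all members were higher on the CPXM2 matrices, and within the 5-library table they were not. The median difference in log2(FPKM + 1) over the 82 members tested was 0.73 for WT 1 against Control 1, 1.33 for R213A 1 and 0.66 for R213A 3. The same medians over all 11193 genes were -0.07, -0.06 and -0.03. Values above those of Control 1 were found for 79, 81 and 81 members, in that order, against 46%, 47.5% and 47.2% of all genes. Control 1 was the lowest of the 4 libraries for 79 of 82 members, against 32.2% of all genes. R213A 1 was the highest for 80 of 82, against 33% of all genes. These 3 differences share Control 1, the only Control library of that table, and were given no test of their own.

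A value at least 2-fold above Control 1 on this scale was seen in 12 of 82 members in WT 1 (7.79% of all genes), 66 in R213A 1 (12.8%) and 1 in R213A 3, the stalk gene RPL12 (2%). The share in R213A 1 far exceeded that of all genes, while the count for R213A 3 was below it. WT 1 lay below the mean of R213A 1 and R213A 3 for 74 of 82 members, with a median of -0.29, against 52.7% of all genes.

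In the 5-library table the median was -0.07 for WT 2 and WT 3 against Control 2 and Control 3, and 68 of 82 members were below 0 (52.3% of all genes). For R213A 2 it was -0.12, and 81 of 82 were below 0 (53.3% of all genes). Control 2 was the highest of the 5 libraries for 76 of 82 members, against 43.7% of all genes. Against Control 3 alone the medians were 0.09 for WT, with 75 members above 0 (50.7% of all genes), and 0.02 for R213A, with 54 above 0 (49.7%). The small deficit against the pair of Control libraries therefore rested on Control 2. Control 2 and Control 3 themselves differed by a median of 0.32, more than either matrix difference in that table.

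**Figure D2:**
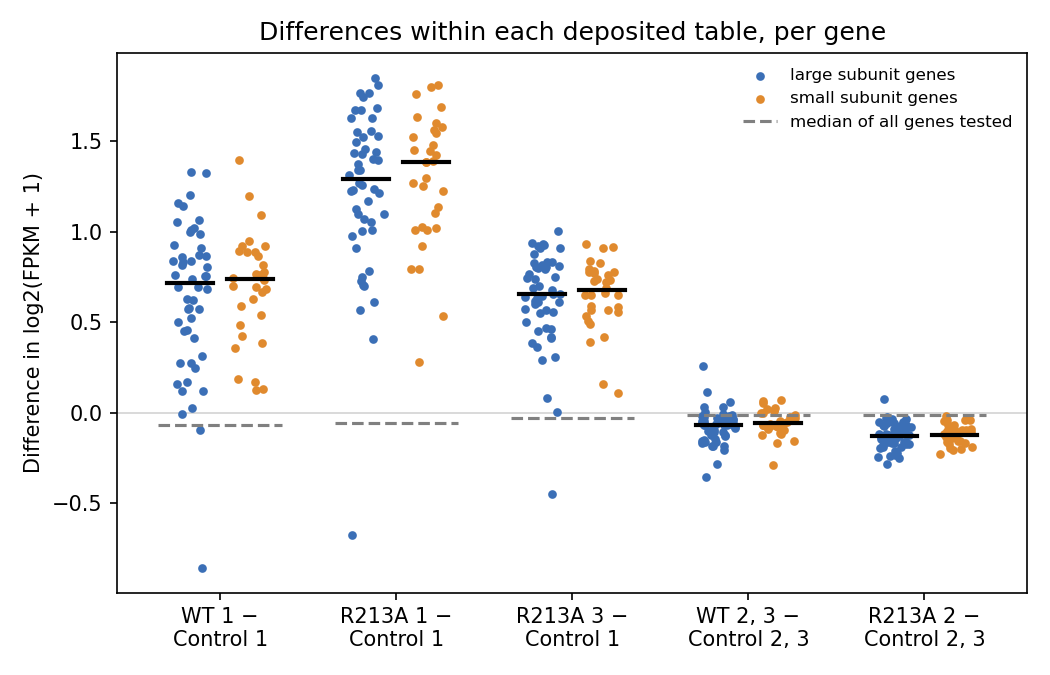
Difference in log2(FPKM + 1) (vertical axis) for each of the 82 members tested, in 5 comparisons formed within a table (horizontal axis), with large subunit genes in blue and small subunit genes in orange. Black bars are medians of the members and dashed lines medians of all 11193 genes; the member medians are 0.73, 1.33 and 0.66 in the 4-library table and -0.07 and -0.12 in the 5-library table.

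When both tables were fitted together, 0 of 82 members passed in any comparison. The fit was limma on log2(FPKM + 1) with matrix and table as terms and Benjamini-Hochberg adjustment at 0.05. For WT against Control the member median was 0.19 with 72 of 82 above 0 (46.3% of all genes). For R213A against Control it was 0.41 with 81 of 82 above 0 (48.1% of all genes), and for WT against R213A -0.20 with 80 of 82 below 0 (51.5% of all genes). The same genes in each library are not independent, so these counts do not show how repeatable the direction is. The smallest adjusted p of a member in limma was 0.757, 0.690 and 0.996 in these 3 comparisons. No gene of the 11193 passed in any of the 3 (0% of all genes in each). At an unadjusted p under 0.05 the members called were 0, 0 and 0, against 4.49%, 3.05% and 1.05% of all genes.

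The 95% interval of a member reached a median of 0.68, 0.71 and 0.71 log2 units above and below the estimate. A difference of the size of the member medians was not detectable for single genes with this spread. Without Control 1 the member medians were -0.11 for WT and -0.01 for R213A against Control, so the pooled difference rested on that library. The R213A median also moved to 0.16 with quantile normalization and to 0.20 without R213A 1. For WT against R213A the median was 0.00 without R213A 1, -0.52 without R213A 2, -0.10 without Control 1, -0.32 without WT 1 and -0.04 with quantile normalization.

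The gap between the tables was tested as an interaction of matrix and table in limma. The member median of that interaction was 0.80 for WT against Control, 1.13 for R213A against Control and -0.34 for WT against R213A. After Benjamini-Hochberg adjustment in limma, 0 members passed in each of the 3, with smallest adjusted p of 0.133, 0.386 and 0.801. Among all genes 1.12%, 0% and 0% passed. Unadjusted, 7, 28 and 0 of 82 members were under 0.05, against 20.7%, 12.4% and 7.25% of all genes. The 7 members for WT against Control and the 0 for WT against R213A lie below the share of all genes. The 28 for R213A against Control lie above it. Members of the same libraries are not independent, so these counts do not show repeatability. This fit had 3 residual degrees of freedom.

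The large and small subunits moved together. In the 4-library table the medians of large and small subunit genes were 0.71 and 0.74 for WT 1, 1.29 and 1.38 for R213A 1, and 0.66 and 0.68 for R213A 3. The ratio of summed FPKM, large over small, was 1.40 in Control 1, 1.28 in WT 1, 1.37 in R213A 1 and 1.36 in R213A 3. It was 1.40 in Control 2, 1.37 in Control 3, 1.38 in WT 2, 1.34 in WT 3 and 1.38 in R213A 2. By matrix this is 1.39 ± 0.0142 (SD, n = 3) in Control, 1.34 ± 0.0506 in WT and 1.37 ± 0.00801 in R213A. The low value of WT 1 was carried by 1 gene, RPS12, which made up 7.88% of its summed ribosomal protein FPKM and 4.82% to 5.99% elsewhere. Without RPS12 the ratio was 1.56 in WT 1 and 1.53 to 1.60 in the 9 libraries.

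RPS12, a protein of the head of the small subunit, had the highest mean FPKM of all members (ENSG00000112306, hg38 chromosome 6, 132814441 to 132817564, plus strand). It stood at 1305 FPKM in Control 1, 3430 in WT 1, 3812 in R213A 1 and 2492 in R213A 3. In the 5-library table it stood at 1249 and 1051 in Control, 1083 and 1207 in WT and 1052 in R213A. The 3 libraries on CPXM2 matrix in the first table were thus apart from all others, and Control 1 lay just above the highest value of the second table. The limma difference was 0.46 (SE 0.36, adjusted p = 0.760) for WT against Control and 0.48 (SE 0.38, adjusted p = 0.690) for R213A against Control.

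RPL10, which is added late in assembly of the large subunit and completes its catalytic site (ENSG00000147403, chromosome X, 154389955 to 154409168, plus strand), followed the same course. It had 194 FPKM in Control 1, 488 in WT 1, 527 in R213A 1 and 370 in R213A 3. The 5-library values were 131 and 107 in Control, 107 and 110 in WT and 109 in R213A. Its limma difference was 0.36 (SE 0.33, adjusted p = 0.770) for WT and 0.44 (SE 0.34, adjusted p = 0.690) for R213A against Control. RPL12 had 341 FPKM in Control 1, 856 in WT 1, 799 in R213A 1 and 685 in R213A 3, and was 1 of the 8 members tested that were higher in WT 1 than in the mean of the R213A libraries of that table.

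Some members with high values in R213A 1 had values in WT 1 near those of Control 1. RPS15, another protein of the small subunit head, had 434 FPKM in Control 1, 555 in WT 1, 1397 in R213A 1 and 687 in R213A 3. RPL7A had 891, 967, 2129 and 1352 FPKM in the same order. RPS26, which touches the mRNA at the exit channel of the small subunit, had 158, 178, 434 and 212 FPKM. In these 3 genes WT 1 lay nearer to Control 1 than to R213A 1, while in RPS12 and RPL10 it lay nearer to R213A 1. In limma the difference of WT from R213A was -0.48 for RPS15, -0.45 for RPL7A and -0.43 for RPS26, each with an adjusted p of 0.996. RPL36, RPL13 and RPS28 had the largest differences between R213A 1 and Control 1, at 1.85, 1.81 and 1.81, and RPS28 had the smallest unadjusted p of a member for R213A against Control (0.0906 in limma).

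**Figure D3:**
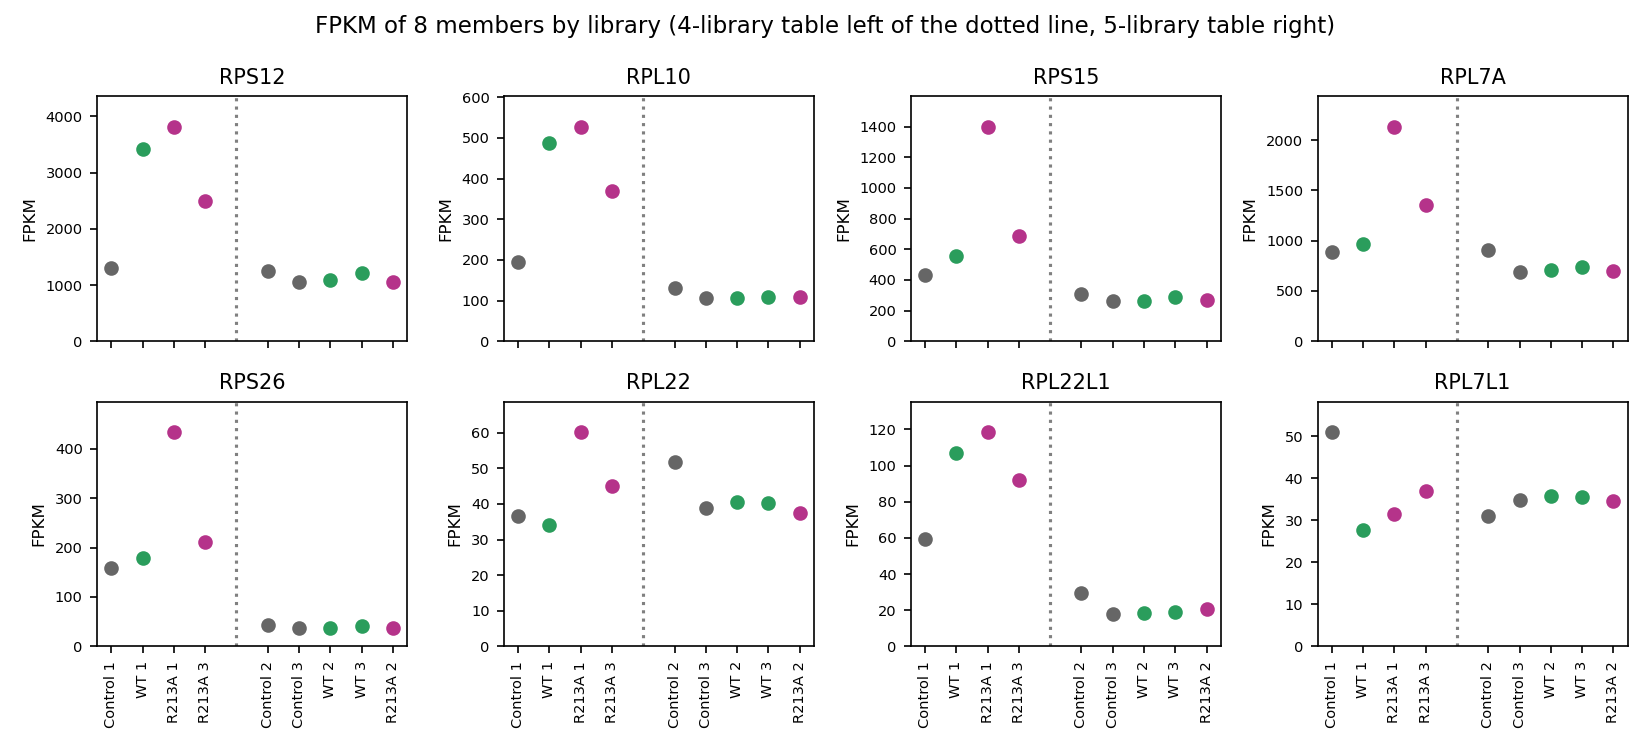
FPKM (vertical axes, each from 0) of 8 members in the 9 libraries, with Control in grey, WT in green and R213A in magenta, and the tables separated by a dotted line. RPS12 and RPL10 are high in WT 1 and both R213A libraries of the 4-library table, RPS15, RPL7A and RPS26 mainly in R213A 1, and RPL7L1 is highest in Control 1.

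The proteins of the P stalk recruit translation factors to the large subunit. RPLP0, its base, had 717 FPKM in Control 1, 1313 in WT 1, 1818 in R213A 1 and 1257 in R213A 3, and 705 to 858 FPKM in the 5-library table. RPLP1 had 273, 612, 933 and 520 FPKM and RPLP2 had 351, 660, 1196 and 625 FPKM in the 4-library order. The stalk genes with RPL12 had medians of 1.03, 1.55 and 0.88 for WT 1, R213A 1 and R213A 3 against Control 1. All 3 medians were above those of the 82 members together.

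RPL5 and RPL11 bind 5S ribosomal RNA and, outside the ribosome, the p53 regulator MDM2. RPL5 had 258 FPKM in Control 1, 306 in WT 1, 395 in R213A 1 and 319 in R213A 3. RPL11 had 226, 367, 596 and 368 FPKM in the same libraries. The differences from Control 1 were thus 0.24, 0.61 and 0.31 for RPL5 and 0.69, 1.39 and 0.70 for RPL11, so RPL5 was among the members with small gaps. In limma, adjusted p for R213A against Control was 0.820 for RPL5 and 0.690 for RPL11.

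Other groups by role had R213A 1 farthest above Control 1. The 14 proteins of the small subunit head had medians of 0.79, 1.45 and 0.72, and the 8 proteins around the exit of the peptide tunnel had 0.48, 1.05 and 0.54. The 18 members known from Diamond-Blackfan anaemia, an inherited failure of red cell production, had 0.55, 1.16 and 0.57. RPS19, the gene most often affected in that disease, had 220 FPKM in Control 1, 416 in WT 1, 745 in R213A 1 and 393 in R213A 3. RPS6, the substrate of S6 kinase, had 366, 695, 806 and 613 FPKM. RPSA, also described as a laminin receptor precursor at the cell surface, had 736, 1107, 2051 and 1219 FPKM.

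The second copies did not all follow the usual forms. RPL7L1, which resembles a yeast assembly factor of the large subunit, was the only member tested that was lower in each of WT 1, R213A 1 and R213A 3 than in Control 1 (ENSG00000146223, chromosome 6, 42879618 to 42889925, plus strand). It had 51.0 FPKM in Control 1, 27.7 in WT 1, 31.6 in R213A 1 and 37.1 in R213A 3, with differences of -0.86, -0.67 and -0.45. The 5-library values were 31.0 and 34.9 in Control, 35.8 and 35.5 in WT and 34.7 in R213A. Control 1 was the library apart, and the others lay between 27.7 and 37.1 FPKM. In limma the difference was -0.21 (SE 0.22, adjusted p = 0.795) for WT and -0.17 (SE 0.23, adjusted p = 0.786) for R213A against Control.

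RPL22L1 and RPL22, a pair in which RPL22 is known to hold down its copy, differed by table. RPL22L1 had 59.7 FPKM in Control 1, 107 in WT 1, 118 in R213A 1 and 91.8 in R213A 3, and 17.8 to 29.5 FPKM in the 5-library table. RPL22 had 36.6, 34.1, 60.1 and 44.9 FPKM in the 4-library order and 37.5 to 51.8 FPKM in the 5-library table. RPL22L1 was therefore above RPL22 in each library of the first table and below it in each library of the second, on a scale per kilobase of listed gene length. Per length of the principal transcript the order in the first table changed. RPL22L1 then had 63.4 against 82.4 for RPL22 in Control 1, 126 against 135 in R213A 1 and 97.5 against 101 in R213A 3, and was above RPL22 only in WT 1 (114 against 76.9). As the tables may have been scaled separately, this compares genes within a library and not libraries across tables.

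RPL39L, a copy best known from testis and tumours, had 21.7 FPKM in Control 1, 26.5 in WT 1, 61.4 in R213A 1 and 33.7 in R213A 3, and 10.3 to 12.1 FPKM in the 5-library table. RPL36AL had 240, 320, 635 and 328 FPKM in the 4-library order. RPL26L1 had 48.3, 48.1, 79.0 and 48.4 FPKM, so that only R213A 1 stood apart. RPS27L, a p53 target, was low at 0.9 to 2.8 FPKM, while RPS27 had 464 to 1384 FPKM. RPL3L, known from muscle, had at most 0.347 FPKM. RPL10L, known from testis, had 0 reads in each of the 9 libraries, which allows up to 3 reads per library for counting error.

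Levels ranged widely among members. By FPKM on listed gene length the highest means were those of RPS12, RPS2, RPL8, RPL41 and RPL13A. The listed length sums all exons, and for members it was a median of 3.38 times the length of the principal GENCODE transcript, against 1.39 for all coding genes. Counted per length of the principal transcript, RPS3, RPL13, RPS2, RPLP0 and RPL8 came first. The lowest means on the listed length belonged to RPL10L, RPL3L, RPL36A, RPS10 and RPS27L.

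RPL36A and RPS10 encode required parts of the ribosome but had low values. Each overlaps another coding gene on the same strand. The 9 members with such an overlap had a median of mean FPKM of 18.3 (range 0.828 to 265), against 345 (43.0 to 1853) for 68 usual members without one. Ribosomal protein genes are also known for their many near-identical processed copies. A total of 1144 pseudogene rows carried the names of 77 members, and held 4.18% of the reads of genes and copies together. In 7 members the copies held more than 10%, led by RPS28 (63.6%) and RPL9 (58.6%). These features were picked after their values were seen. The copy RPS28P7 had 1393 FPKM in Control 1 where RPS28 had 81.9, and RPL9P9 had 699 where RPL9 had 72.2. The listed lengths enlarge these gaps, at 210 bases for RPS28P7 and 2119 for RPS28, and 717 for RPL9P9 and 5022 for RPL9. In reads of Control 1 the copies had 5485 against 3253 for RPS28 and 9403 against 6799 for RPL9. Read-through genes that join RPS10 and RPL36A to their neighbours had at most 4 reads in a library. How multiply aligned or overlapping reads were counted is not given in the sources used here, and levels of these members are therefore uncertain.

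The order of members was steady between libraries. Across the 82 members tested, Spearman's rho of FPKM was 0.972 to 0.993 between libraries of the 4-library table, 0.997 to 0.999 within the 5-library table and 0.942 to 0.984 between tables. These describe genes, which share gene length and composition in each library. Levels differed between the libraries of the tables gene by gene. Each library of the 4-library table was above each of the 5-library table in 35 of 82 members (23.7% of all genes). With Control 1 set aside, which leaves only CPXM2 matrices on that side, this held for 78 (29.9%). The ratio of mean FPKM between tables had a median of 1.90 and was 6.23 for RPS26, which had 158 to 434 FPKM in the first table and 36.5 to 43.6 in the second. At the other end it was 1.05 for RPL22 and 1.07 for RPL7L1. The tables hold unlike numbers of Control libraries, so these counts and ratios mix matrix with table. Among Control libraries alone the median FPKM of members was 236 in Control 1, 239 in Control 2 and 184 in Control 3.

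Within the 4-library table the size of the difference moved with the composition of the transcript. Across the 82 members, Spearman's rho between GC content of the principal transcript and the difference from Control 1 was 0.38 for WT 1, 0.58 for R213A 1 and 0.59 for R213A 3. Across 9873 other coding genes it was 0.42, 0.65 and 0.55. For R213A 1 the rho with transcript length was -0.31 in members and -0.54 in other coding genes. These are correlations across genes of the same pair of libraries. Members with the lower GC content (42.1% to 49.5%) had a median of 1.10 in R213A 1, and those with the higher (49.5% to 63.6%) had 1.46.

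Other coding genes in the same ranges of transcript length had smaller medians. In the shortest group of members (296 to 625 bases, n = 28) the medians were 0.74, 1.43 and 0.66 for WT 1, R213A 1 and R213A 3 against Control 1. The 129 other coding genes of that length had 0.32, 1.13 and 0.38. In the middle group (626 to 916 bases, n = 27) members had 0.74, 1.26 and 0.72, and 399 other coding genes had 0.35, 0.91 and 0.34. In the longest group (934 to 7686 bases, n = 27) members had 0.70, 1.17 and 0.66, and 8707 other coding genes had -0.10, -0.10 and -0.05. That range is too wide to match lengths, as the median principal transcript had 712 bases in members and 2475 in all coding genes. The part of length and GC content in the members' differences was not tested.

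**Figure D4:**
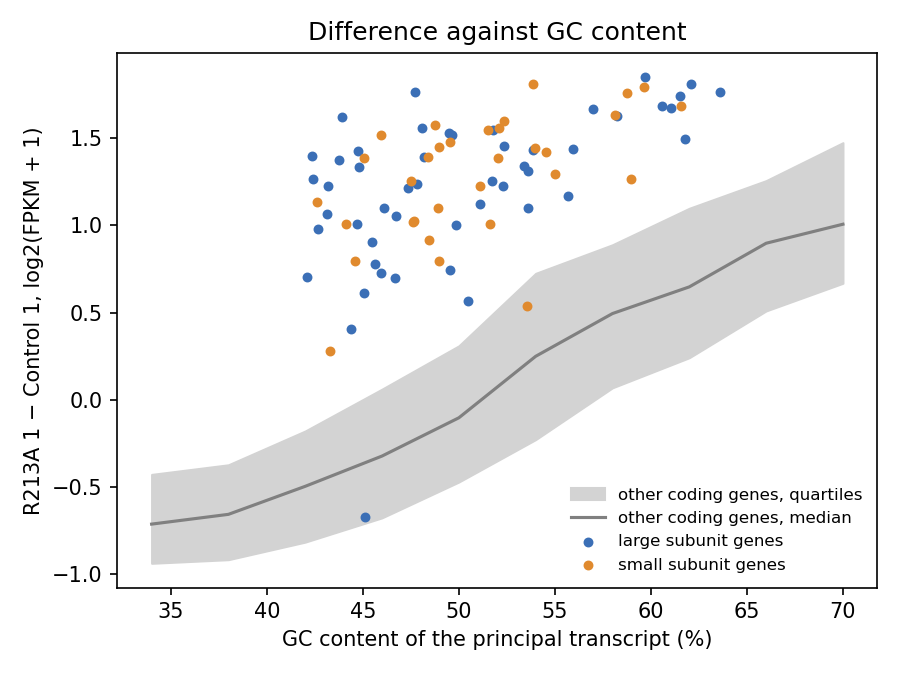
Difference between R213A 1 and Control 1 in log2(FPKM + 1) (vertical axis) against GC content of the principal transcript in % (horizontal axis). Points are the 82 members tested, the line is the median and the band the quartiles of other coding genes in steps of GC content; most members lie above the band, and both members and other genes rise with GC content.

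Genes that work beside the ribosomal proteins were split. FAU, which encodes a ribosomal protein fused to a ubiquitin-like protein, and RACK1, a protein bound to the small subunit, fall outside the naming rule. FAU had 172 FPKM in Control 1, 324 in WT 1, 540 in R213A 1 and 282 in R213A 3. RACK1 had 485, 1003, 994 and 824 FPKM in the same order. Both were above Control 1 in each of the other libraries of that table, as most members were, with adjusted p of 0.690 to 0.795 in limma for the matrices against Control.

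The other lists behaved differently. Of 21 other TOP mRNAs of the translation machinery, 11 were above Control 1 in WT 1, 11 in R213A 1 and 15 in R213A 3, with medians of 0.10, 0.26 and 0.26. In the 5-library table their medians were -0.15 for WT and -0.19 for R213A against the Control pair, near those of the members. There 3 and 1 of 21 were above 0, against 5335 and 5219 of 11193 genes. Control 2 was above Control 3 for 20 of 21, with a median of 0.32 as in the members. Among these TOP mRNAs EEF1A1, the elongation factor that brings aminoacyl-tRNA, had 2622 FPKM in Control 1, 3660 in WT 1, 3148 in R213A 1 and 3576 in R213A 3. It had 5070 to 7391 FPKM in the 5-library table. Against Control 1 the 39 ribosome assembly factors had medians of -0.26, -0.24 and -0.07, and the 9 dedicated chaperones of ribosomal proteins -0.50, -0.23 and -0.20. The 75 mitochondrial ribosomal protein genes tested had 0.17, 0.75 and 0.25, between those of all genes and those of the members. Of the 13 mitochondrial genome protein genes, 0 were above Control 1 in WT 1, 3 in R213A 1 and 0 in R213A 3. Their medians were -0.80, -0.35 and -0.46. Control 2 and Control 3, which share a matrix and a table, differed by more in these genes. The median of Control 2 minus Control 3 was -0.90, and 0 of 13 were above 0.

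The 19 known regulators of ribosomal protein genes had medians of -0.31, -0.45 and -0.21. LARP1 had 51.3 FPKM in Control 1, 29.1 in WT 1, 25.8 in R213A 1 and 35.8 in R213A 3, and 45.2 to 51.8 FPKM in the 5-library table. MYC, which drives ribosome production, had 68.9, 55.7, 40.3 and 64.0 FPKM in the 4-library order. LARP1 was thus lower in the libraries where most members were higher, while its adjusted p in limma was 0.757 for WT and 0.690 for R213A against Control. A link between LARP1 and the levels of the members was not tested. In each of these lists 0 genes passed the adjusted threshold in limma in any comparison.

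Markers fixed for the cell line were checked beside these results. Of 6 pancreatic epithelial keratin and adhesion markers, 3 had a mean of at least 1 FPKM, and the list summed to 341 to 950 FPKM. Of 10 fibroblast, 6 immune and 4 endothelial markers, 0 had a mean of at least 1 FPKM. Their summed levels were 0.0548 to 0.925, 0 to 0.214 and 0.0834 to 1.03 FPKM, and FAP and CD3E had 0 reads. Mitochondrial transcripts took 1.81% to 2.38% of the reads. In bulk RNA, fewer cells with a transcript and less of it per cell cannot be told apart.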

How the data were processed

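PaTu 8988t cells on 3 matrices gave 9 libraries, 3 per group. The deposited values are FPKM per gene, which the authors computed and deposited as separate tables of 4 and 5 libraries. Per the submitters' processing notes the build was hg38 and bcl2fastq was used; the aligner, counter, strand setting, annotation release and basis of the library scaling were not given in the sources used here. FPKM multiplied by the listed length gave whole reads for 100% of values (tolerance 0.01 reads), with 15951927 to 18312806 reads and 20059 to 21401 genes with a read per library. Levels were tested on log2(FPKM + 1) with limma 3.58.1 in R 4.3.3 (mean-variance trend, all 9 libraries, matrix and table as terms, 5 residual degrees of freedom) for the 11193 genes with mean FPKM of at least 1. Adjustment followed Benjamini and Hochberg over all of these genes, with a threshold of 0.05. The log2 fold change understates changes of genes with low values. The procedure was tested on simulated data. Differences within a table were described without a test of their own; the interaction of matrix and table was tested.

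Named members were, by rule, the 5 highest and 5 lowest by mean FPKM, the 3 largest differences in each direction per comparison, the 2 largest and smallest within each table, the second copies and 15 fixed genes; others named were picked after their values were seen. Members, lists and rules were chosen with earlier results of these data known. Promoter windows are from RefSeq (GRCh38.p14), and principal transcript lengths from GENCODE 29, whose coordinates matched the tables for all 85 members. Alternatives changed the pseudocount, filter, scaling, table term, replicate block, spread model, length correction, the use of recovered reads with limma-voom and each library in turn. Adding pseudogene reads to the read share, and setting Control 2 aside in the 5-library table, were chosen after seeing the data.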

Additional observations from a re-analysis of the deposited data

How the results depend on the processing

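No member passed the adjusted threshold in limma under any alternative run, in any of the 3 comparisons. With no filter on low values, 1 gene outside the members passed for WT against Control and 1 for R213A against Control, where 0 had passed. At an unadjusted p and without R213A 2, 14 of 82 members passed for R213A against Control (10% of all genes) and 3 for WT against R213A (6.92%), and under the other alternatives at most 1 member did.

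The member median depended on single libraries. Leaving out 1 library gave -0.11 (without Control 1) to 0.40 (without Control 2) for WT against Control. It gave -0.0064 (without Control 1) to 0.71 (without R213A 2) for R213A against Control, and -0.52 (without R213A 2) to 0.00 (without R213A 1) for WT against R213A. Of 117 differences of named members, 59 changed sign without Control 1. Quantile normalization gave 0.12, 0.16 and -0.04, and limma-voom on recovered reads 0.24, 0.34 and -0.09. The length correction used the listed gene length, not that of the principal transcript, and gave 0.13, 0.29 and -0.20. With limma-voom the medians of all genes moved too, to 0.02, -0.08 and 0.11, from -0.03, -0.02 and -0.01 in the main fit. Without the table term the medians were 0.19, 0.64 and -0.46.

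With the replicate block beside the table term they were 0.19, 0.49 and -0.29, with 0 members called. Same-numbered libraries deviated together with r of 0.60 to 0.77 for number 1, 0.33 to 0.84 for number 2 and 0.57 for Control 3 with WT 3. R213A 3, which lies in the other table, gave -0.65 and -0.70 with these, so pairing by number cannot be told apart from the table.

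The gap between large and small subunit medians was -0.03 for WT against Control. It became 0.014 with quantile normalization and -0.058 with the length correction. For WT against R213A the gap became -0.046 without the table term. For R213A against Control, leaving out 1 library gave -0.046 (without Control 3) to 0.017 (without Control 2). Without the second copies the ratio of large to small subunit FPKM was 1.36, 1.37 and 1.34 in Control 1 to 3. It was 1.26, 1.35 and 1.31 in WT 1 to 3 and 1.33, 1.34 and 1.33 in R213A 1 to 3. Counting pseudogene reads raised the read share to 8.17% in Control 1 and 16.2% in R213A 1. The cause of these shifts was not tested.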
